A study of Sus scrofa with 12 samples.

Results

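The constitutive proteasome genes of the pig were followed through loin muscle of Tough and Tender animals. They were taken as every protein-coding gene of the Sscrofa11.1 annotation whose symbol starts with PSMA, PSMB, PSMC or PSMD, without the immunoproteasome subunits *PSMB8*, *PSMB9* and *PSMB10*. This rule, which uses no expression value, gave 37 genes of 28232 annotated on the chromosomes. RNA of the Longissimus dorsi, the loin muscle, came from 12 castrated male Iberian pigs of a closed purebred line, fattened free-range on acorns and grass and slaughtered at about the same age. The 6 Tough animals had shear force values of 7.32 to 10.63 kg per cm2 and estimated breeding values for it of 1.76 to 2.40. The 6 Tender animals had shear force values of 2.18 to 3.43 kg per cm2 and breeding values of -1.09 to -0.98. The animals were selected from that line for these breeding values, which is all that separates the groups in the labels. The authors also report a lower intramuscular fat content in the Tough than in the Tender group, and its part in the values below was not tested. One library was made per animal, and the comparison asks which genes differ in expression between tough and tender loins.

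The proteasome is the large protease that degrades proteins tagged with ubiquitin. Its 20S core is a barrel of stacked rings, in which outer rings of alpha subunits gate the entry and inner rings of beta subunits carry the cutting sites. The 19S cap binds ubiquitinated proteins, removes the ubiquitin, unfolds the chain with a ring of ATPases and feeds it into the core. In skeletal muscle this system takes up much of the turnover of contractile proteins, and its genes are known to rise together in muscle wasting.

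Levels are given as FPKM, in which fragments are scaled by transcript length and library size. Products of FPKM and transcript length were added over the deposited transcripts of a gene and divided by its annotated exonic length. Where the assembled transcript is shorter than all annotated exons together, the level is lowered, so levels of different genes compare only roughly. The deposited assemblies held 25798 to 31353 transcripts per library and no read counts. The authors report read totals per animal, which were not used here. Where a proteasome gene was the only transcript of its locus, the confidence limits deposited with its FPKM gave an estimate of the fragments behind it. Over 361 such values this ran from 68.2 to 18058, with a median of 1567. The estimate is rough and is not a count of fragments. For *PSMD11* it ran from 1889 to 18058, while FPKM times transcript length in kilobases ran only from 194 to 352. No counting error entered the tests. Of the 7 skeletal muscle markers found in the annotation, *TTN*, *MYH7*, *TNNT3*, *MYBPC2* and *PYGM* were above 0 in all 12 libraries. All 7 together summed to 8560.6 to 12073 FPKM in Tough and 5619.2 to 12125 FPKM in Tender. *CKM*, the muscle creatine kinase, was listed at 0 in 7 libraries and *DES*, the muscle intermediate filament, in 5. A value of 0 in these files can therefore be a transcript that was not assembled, and the sums carry such zeros. Tender library 6, the lowest in the sum, had both genes at 0, while Tender library 1, the highest, had *CKM* at 4615 FPKM. In this bulk tissue, fewer cells of a type and less RNA per cell cannot be told apart.

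Among the 37 genes, 34 had a mean above 0.5 FPKM and were tested. The other 3, *PSMA8*, *PSMB11* and *PSMC3IP*, were listed at 0 in all 12 libraries. None of them is a subunit of the usual 26S particle in muscle. *PSMA8* encodes the alpha subunit of the testis, *PSMB11* the beta subunit of the thymic cortex, and *PSMC3IP* a partner of the meiotic recombinases. The median level of the 34 genes was 56.1 FPKM (mean of 12 libraries for each gene), against 3.33 FPKM for all 9017 genes tested, and 5.79% of these had a level above the median proteasome gene. The 30 genes above 0 in all 12 libraries had coefficients of variation of 9.19% to 40.6%, with a median of 18.8%, against 26.7% over 7935 genes above 0 in all libraries.

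No proteasome gene was called between the groups. A call needed a limma p no higher than 0.05, a Benjamini-Hochberg adjusted p no higher than 0.10 and at least a 1.5-fold change, and this held for 0 of 34 proteasome genes and 0 of 9017 genes tested (0%). At an unadjusted limma p of at most 0.05 there were 0 of 34, against 223 of 9017 genes (2.47%). The smallest limma adjusted p over all genes was 0.653, and for each of the 34 genes it was 1.00 after rounding. For genes given one by one, the p is that of the exact permutation test of the group means over all ways to form 2 groups of 6, two-sided. By that test, 1 of the 34 genes had a p of at most 0.05, against 2.51% of all genes tested. For none of the 34 did the FPKM of the 6 Tough and the 6 Tender libraries lie apart without overlap, which 0.0998% of all genes tested did.

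The fold changes leaned to lower values in Tough. The log2 fold change, Tough over Tender, was below 0 for 29 of the 34 genes and above 0 for 5, while it was below 0 for 60.3% of all genes tested. Over the alternatives that tested all 34 genes the count ran from 22 to 31. It was 22, or 64.7%, when a transcript had to hold 90% of its bases in the gene, where 58.5% of all genes were below 0. The share of all genes depended on library scaling. Under median-of-ratios scaling the count was 29 beside 50.35% of all genes, and under quantile normalization 27 beside 49.7%. The median log2 fold change was -0.15 over the 34 genes and -0.04 over all genes. These genes share the same 12 libraries and moved together across them, as described further on, so the 29 directions are not separate observations. Marker lists of other cell types are given beside this lean. *HBB* and *ALAS2*, the red blood cell markers tested, had log2 fold changes of -0.85 and -0.69 and no overlap between the groups, though neither was called. Their list of 3, of which *AHSP* was listed at 0 in 7 libraries, summed to 124 to 207 FPKM in Tough and 239 to 353 FPKM in Tender. All 4 fibroblast markers had values above 0 in every library and log2 fold changes above 0, with sums of 44.5 to 158 FPKM in Tough and 50.7 to 96.1 FPKM in Tender. The 4 endothelial markers summed to 14.9 to 31.5 FPKM in Tough and 24.2 to 39.1 FPKM in Tender, and all 4 had log2 fold changes below 0. The 4 adipocyte markers, of which *ADIPOQ* was listed at 0 in all 12 libraries, summed to 1.72 to 13.4 FPKM in Tough and 0.99 to 9.13 FPKM in Tender, and the 6 lymphocyte markers, of which *CD79A* and *MS4A1* were listed at 0 in all 12, summed to at most 2.29 FPKM in any library. The part of these lists in the proteasome values was not tested.

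**Figure D1:**
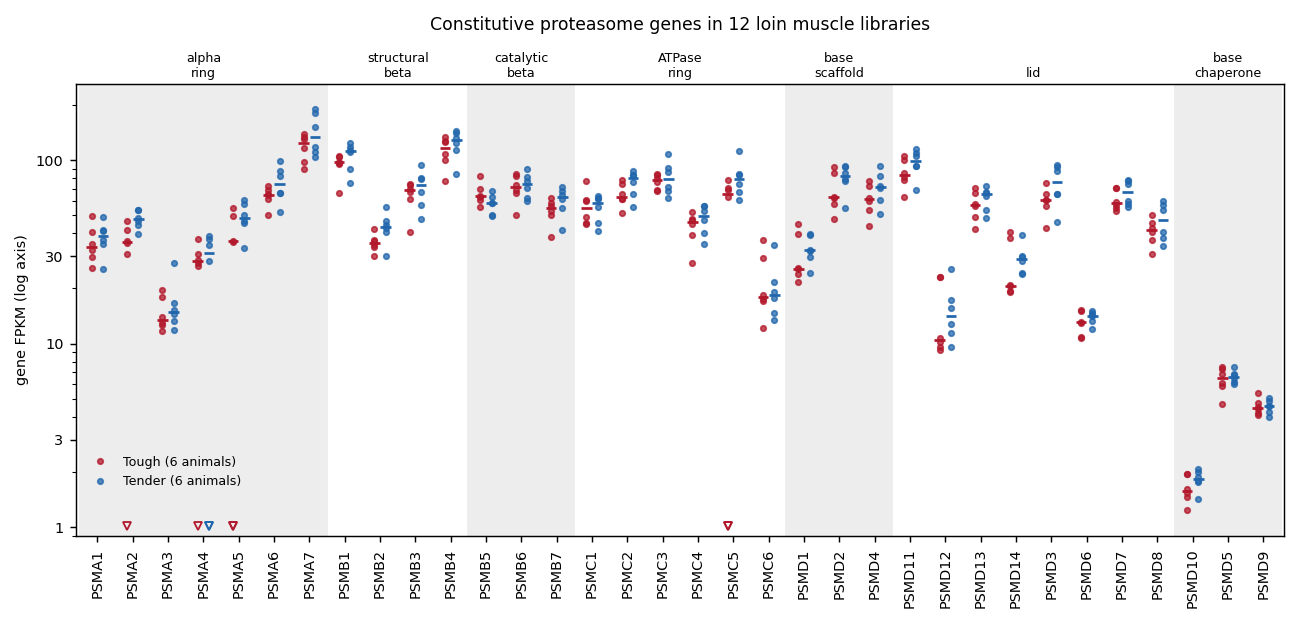
Gene FPKM on a log axis for the 34 tested proteasome genes, grouped by role. Each point is a library (red, Tough; blue, Tender), short bars are group medians, and open triangles at the bottom mark libraries in which a gene was listed at 0. The points of both groups overlap for every gene, from PSMD10 near 1.72 FPKM to PSMA7 near 130 FPKM.

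The alpha subunits form the outer rings of the core, whose tails close the gate. Of the 7 alpha genes, 6 had a log2 fold change below 0. *PSMA7* (chr17:61566373-61571516, minus strand) had the highest level of all proteasome genes, at 130 FPKM. It ranged from 89.6 to 139 FPKM in Tough, with a median of 124, and from 104 to 190 FPKM in Tender, with a median of 134. The Tender range started inside the Tough range and reached above it. Its log2 fold change was -0.25 (SE 0.19, exact permutation p = 0.190).

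*PSMA5* (chr4:110695429-110717308, plus strand) had the smallest limma p of the alpha genes. In Tough it was listed at 0 in libraries 1 and 6 and at 49.8, 54.7, 36.5 and 35.9 FPKM in libraries 2, 3, 4 and 5. In Tender it was at 33.3, 60.7, 46.5, 45.6, 57.5 and 50.4 FPKM in libraries 1 to 6. The Tough libraries that had the transcript lay within the Tender range. The log2 fold change of -2.30 (SE 1.24, exact permutation p = 0.104) rests on the pair of zeros, where no transcript of the strand touched an exon of the gene.

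*PSMA2* and *PSMA4*, the latter the alpha subunit whose tail reaches across the gate, were also listed at 0 in some libraries. *PSMA2* (chr18:51909399-51919859, plus strand) was at 41.9, 0, 46.9, 30.8, 35.2 and 36.2 FPKM in Tough libraries 1 to 6. In Tender it was at 39.9, 53.3, 44.6, 53.6, 48.6 and 46.8 FPKM. Tough was lower in this measure by the exact permutation test (two-sided p = 0.0173, adjusted p over all genes tested = 1.00), but its limma interval crossed 0 (log2 fold change -1.37, SE 0.95). The 0 in Tough library 2 came from a transcript that ran 1375 bases past the end of the gene and so had under 50% of its bases in it. Per exon base, a measure that needs no minimum share, Tough library 2 had 20.1 FPKM, and the group medians were 33.0 FPKM in Tough and 37.0 FPKM in Tender (log2 fold change -0.21, exact permutation p = 0.439).

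*PSMA4* (chr7:47440576-47448599, minus strand) was listed at 0 in Tough library 6 and in Tender libraries 1 and 6. Its other values were 26.5 to 37.1 FPKM in Tough and 28.2 to 38.5 FPKM in Tender, and these overlapped. Its log2 fold change of 0.86 (SE 1.47, exact permutation p = 0.929) became 0.14 per exon base (exact permutation p = 0.567), where no library was at 0. The remaining alpha genes were *PSMA1* at 36.8 FPKM (log2 fold change -0.11), *PSMA3* at 15.7 FPKM (-0.13) and *PSMA6* at 69.6 FPKM (-0.22). Within a ring that holds each alpha protein once, the mean levels of the genes ran from 15.7 to 130 FPKM. Part of this spread lies in the division by all annotated exons. *PSMA3* has 2799 exonic bases, and its transcript in Tough library 3 had 980 bases at 56.4 FPKM, where the gene level was 19.7 FPKM.

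The beta subunits without a cutting site build the inner rings around the active ones. *PSMB4* (chr4:97835544-97837909, minus strand) had the highest level of the group, at 118 FPKM. It ranged from 77.2 to 134 FPKM in Tough (median 117) and from 84.1 to 144 FPKM in Tender (median 128), with a log2 fold change of -0.14 (SE 0.17, exact permutation p = 0.385). *PSMB2* (chr6:91792055-91829942, minus strand) had the smallest limma p of the group and the third smallest of all proteasome genes. It ranged from 29.9 to 42.2 FPKM in Tough, with a median of 35.5, and from 30.2 to 55.3 FPKM in Tender, with a median of 43.5. The ranges overlapped, with the higher values in Tender. The log2 fold change was -0.27 (SE 0.14, exact permutation p = 0.0563). The other genes of the group were *PSMB1* at 99.7 FPKM (log2 fold change -0.15) and *PSMB3* at 67.5 FPKM (-0.13).

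The 3 catalytic genes *PSMB5*, *PSMB6* and *PSMB7* had mean levels of 62.0, 72.1 and 56.6 FPKM. *PSMB5*, which carries the chymotrypsin-like site, is at chr7:76014576-76021922 on the plus strand. It ranged from 55.6 to 82.4 FPKM in Tough, with a median of 63.5, and from 49.6 to 67.7 FPKM in Tender, with a median of 58.7. Tough library 1 was the highest and Tender library 6 the lowest, and the other values of both groups overlapped. The log2 fold change was 0.18 (SE 0.13, exact permutation p = 0.134), the only value above 0 among the beta genes. Under quantile normalization *PSMB6* was above 0 as well, at 0.044, and with the 90% share *PSMB1* and *PSMB3* were. Transcripts over *PSMB5* reached 23764 to 23878 bases past its 3' end in Tough libraries 1, 3, 4, 5 and 6 and in Tender libraries 3, 4 and 5. The part of this overrun in its fold change was not tested.

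*PSMB6*, which carries the caspase-like site, is at chr12:52096009-52098164 on the minus strand. It ranged from 50.4 to 83.6 FPKM in Tough (median 71.2) and from 60.0 to 89.1 FPKM in Tender (median 74.0). Its log2 fold change was -0.057 (SE 0.15, exact permutation p = 0.706). *PSMB7*, which carries the trypsin-like site, is at chr1:265172257-265235389 on the minus strand. It ranged from 38.1 to 62.2 FPKM in Tough (median 54.7) and from 41.4 to 71.3 FPKM in Tender (median 62.8), with a log2 fold change of -0.18 (SE 0.16, exact permutation p = 0.232). The groups overlapped in both genes.

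In the immunoproteasome, which cells build under interferon, *PSMB8*, *PSMB9* and *PSMB10* take the places of *PSMB5*, *PSMB6* and *PSMB7*. In 11 of the 12 libraries their FPKM were a small part of those of their constitutive counterparts. *PSMB8* was at 3.15% to 9.22% of *PSMB5* in these 11, *PSMB9* at 1.04% to 3.08% of *PSMB6*, and *PSMB10* at 5.01% to 21.8% of *PSMB7*. In Tender library 2 the shares were 65.8%, 41.2% and 56.2%. The constitutive genes of that animal stayed within the range of the others, with *PSMB5* at 67.7, *PSMB6* at 81.2 and *PSMB7* at 61.3 FPKM. Of the interferon response markers, *GBP1* was at 169.95 FPKM in Tender library 2 and at 1.13 to 5.71 FPKM in Tough, *TAP1* at 47.2 FPKM and at 2.24 to 5.82 FPKM, and *IRF1* at 19.98 FPKM and at 0.58 to 1.59 FPKM. The 6 macrophage markers, of which *CD68* was listed at 0 in 8 libraries, summed to 62.9 FPKM in Tender library 2 and to 8.96 to 32.6 FPKM in Tough. Most of the sum in Tender library 2 came from *C1QA* at 23.7 and *C1QB* at 31.2 FPKM. *CD163*, at 1.97 FPKM, was also above every Tough library. *CD68* was at 0 there, and *CSF1R* at 5.87 and *MRC1* at 0.19 FPKM lay within the Tough ranges. The part of these marker lists in the shares was not tested.

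**Figure D2:**
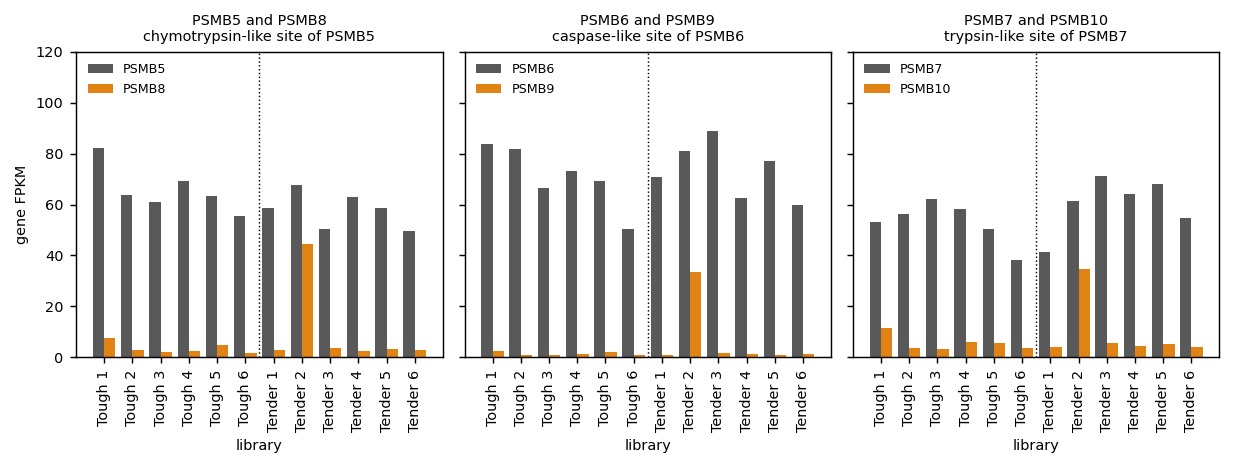
FPKM of each constitutive catalytic gene (grey) beside its immunoproteasome counterpart (orange) in each of the 12 libraries, with Tough left and Tender right of the dotted line. The grey bars stay between 38.1 and 89.1 FPKM, and the orange bars stand out in Tender 2, at 44.5, 33.4 and 34.5 FPKM.

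The ATPases of the cap form the ring that unfolds the substrate. *PSMC3* (chr2:15185482-15191189, plus strand) had the highest level of the group, at 78.9 FPKM. It ranged from 68.1 to 84.6 FPKM in Tough (median 78.1) and from 62.2 to 108 FPKM in Tender (median 78.8), and the Tough range lay inside the Tender range. Its log2 fold change was -0.058 (SE 0.15, exact permutation p = 0.589). The other genes above 0 in all libraries were *PSMC1* at 55.5 FPKM (log2 fold change 0.026), *PSMC2* at 70.2 FPKM (-0.20), *PSMC4* at 45.5 FPKM (-0.16) and *PSMC6* at 21.0 FPKM (0.088).

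*PSMC5* (chr12:15101946-15106326, minus strand) had the smallest limma p of all proteasome genes, and its value turned on how the transcripts were assembled. It was at 62.8, 0, 0, 77.9, 68.4 and 70.5 FPKM in Tough libraries 1 to 6. In Tender it was at 60.5, 112, 82.8, 67.2, 84.3 and 74.5 FPKM. The 4 Tough libraries above 0 lay within the Tender range, and the log2 fold change was -2.55 (SE 1.36, exact permutation p = 0.0671).

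The transcripts over *PSMC5* ran past its 3' end in 5 of 6 Tough libraries and in 2 of 6 Tender libraries. The next gene beyond that end is *SMARCD2*, a chromatin remodelling subunit on the opposite strand. In Tough libraries 2 to 6 the overrun was 2209, 1479, 1213, 1891 and 1216 bases, and in Tender libraries 2 and 5 it was 995 and 1280 bases. The transcript of highest FPKM was 1256 bases long in Tough library 1 and 2442 to 3447 bases in the other Tough libraries. In Tender it was 2356 bases in library 2 and 1240 to 1283 bases in the others.

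Since FPKM divides fragments by the length of the assembled transcript, other measures of the same gene gave other pictures. Per exon base, *PSMC5* was at 62.8, 32.8, 40.5, 43.0, 42.9 and 38.9 FPKM in Tough libraries 1 to 6. In Tender it was at 60.5, 64.7, 82.8, 67.2, 83.3 and 74.5 FPKM. Tough library 1 lay above the lowest Tender library and the other Tough libraries below every Tender one. The log2 fold change in this measure was -0.74 (SE 0.16, limma p = 0.000388, adjusted p = 0.950; exact permutation p = 0.00433), where 2.86% of 9272 genes reached an unadjusted p of 0.05. As FPKM times transcript length in kilobases, summed over the whole of the overlapping transcripts and so no longer divided by length, the values were 126 to 167 in Tough, with a median of 149, and 121 to 225 in Tender, with a median of 158. These groups overlapped over the whole Tough range. The fragments beyond the gene cannot be told apart from its own in this last measure, and *PSMC5* also shares 461 exonic bases with *FTSJ3* on the opposite strand.

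The scaffold of the base holds the ATPase ring and the docking sites for ubiquitin. *PSMD2* (chr13:122187500-122199397, plus strand), the subunit that shuttle factors dock on, had both the highest level, at 74.1 FPKM, and the smallest limma p of the group. It ranged from 47.7 to 91.6 FPKM in Tough (median 62.9) and from 54.9 to 92.6 FPKM in Tender (median 82.0), with a log2 fold change of -0.25 (SE 0.18, exact permutation p = 0.210). The groups overlapped over nearly their whole ranges. *PSMD4*, an intrinsic ubiquitin receptor, was at 66.6 FPKM (log2 fold change -0.21), and *PSMD1* was at 31.6 FPKM (-0.15).

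The lid surrounds *PSMD14*, the metalloprotease that cuts ubiquitin off the substrate. All 8 lid genes had log2 fold changes below 0, between -0.30 and -0.10, none at an unadjusted limma p under 0.05. *PSMD14* was above 0 with the 90% share and *PSMD12* without Tender library 4. *PSMD11* (chr12:42498711-42529853, minus strand), a lid subunit that also touches the ATPase ring, had the highest level, at 91.5 FPKM. It ranged from 63.3 to 105 FPKM in Tough (median 83.3) and from 69.1 to 115 FPKM in Tender (median 99.3), with a log2 fold change of -0.19 (SE 0.16, exact permutation p = 0.219). *PSMD3* (chr12:22344751-22360550, minus strand) had the smallest limma p. It ranged from 42.6 to 75.6 FPKM in Tough (median 60.7) and from 46.0 to 94.5 FPKM in Tender (median 76.4), with a log2 fold change of -0.30 (SE 0.20, exact permutation p = 0.123). The groups overlapped in both genes. The others were *PSMD6* at 13.5 FPKM (log2 fold change -0.10), *PSMD7* at 64.1 FPKM (-0.14), *PSMD8* at 44.2 FPKM (-0.18), *PSMD12* at 14.9 FPKM (-0.14), *PSMD13* at 59.5 FPKM (-0.13) and *PSMD14* at 27.8 FPKM (-0.21).

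*PSMD12* and *PSMD3* lie at opposite ends in base composition, which the smaller of the patterns across libraries, described further on, followed. The exons of *PSMD12* held 36.9% G and C, the lowest share of the 30 proteasome genes above 0 in all libraries, and those of *PSMD3* 61.6%, the highest. The stretches shown are 90 coding bases from the middle of the longest coding exon of each, read 5' to 3' on the gene's strand from Sscrofa11.1, with G and C in capitals. The stretch of *PSMD12* is chr12:13706525-13706614 on the minus strand, with 33 capitals, and that of *PSMD3* is chr12:22360215-22360304 on the minus strand, with 59.
PSMD12: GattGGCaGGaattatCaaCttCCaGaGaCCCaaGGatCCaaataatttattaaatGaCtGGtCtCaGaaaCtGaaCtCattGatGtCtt
PSMD3: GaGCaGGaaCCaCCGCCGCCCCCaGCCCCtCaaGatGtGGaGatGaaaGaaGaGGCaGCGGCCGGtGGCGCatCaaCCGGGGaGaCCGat

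The chaperones of the base help to build the ATPase ring and leave the finished particle. They were the lowest of the 34 genes. *PSMD5* (chr1:260847403-260868767, minus strand) was at 6.50 FPKM, with 4.69 to 7.44 FPKM in Tough (median 6.47) and 6.06 to 7.44 FPKM in Tender (median 6.63). *PSMD10*, also known as gankyrin, is at chrX:88540261-88548593 on the minus strand and was at 1.72 FPKM. It ranged from 1.24 to 1.94 FPKM in Tough (median 1.58) and from 1.43 to 2.07 FPKM in Tender (median 1.84). The groups overlapped in both, and the log2 fold changes were -0.064 (SE 0.12, exact permutation p = 0.619) for *PSMD5* and -0.13 (SE 0.12, exact permutation p = 0.195) for *PSMD10*. *PSMD9* was at 4.56 FPKM and had a log2 fold change of 0.0060.

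**Figure D3:**
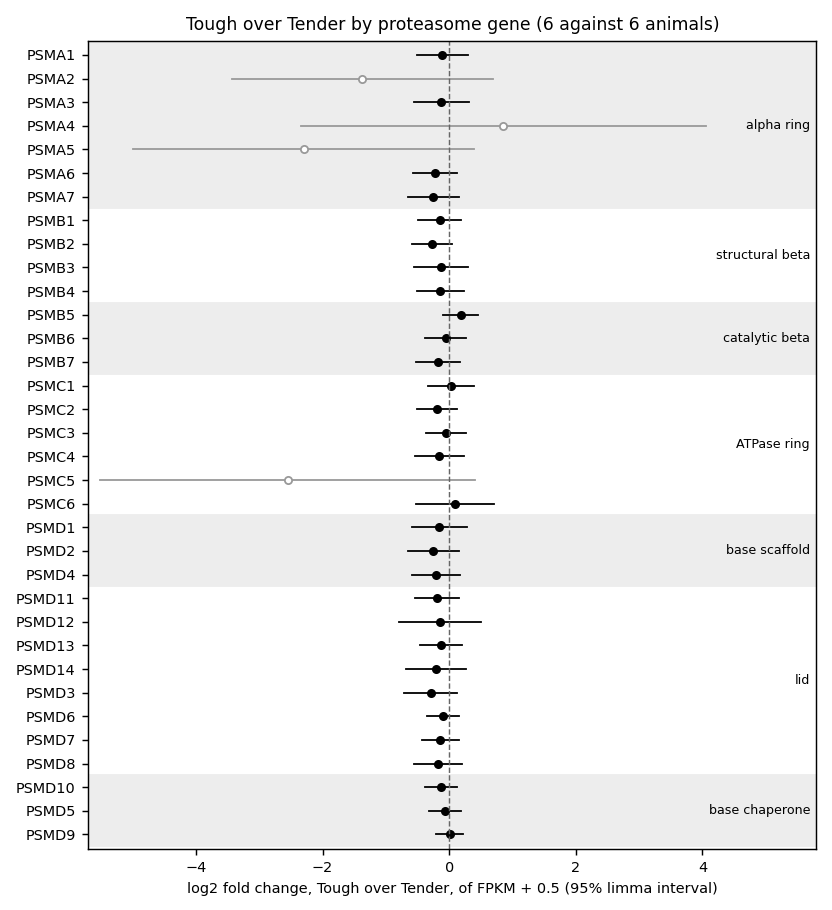
Log2 fold change, Tough over Tender, of each tested proteasome gene with its 95% limma interval, 6 against 6 animals. Filled points are genes above 0 in all libraries, and open grey points are PSMA2, PSMA4, PSMA5 and PSMC5, listed at 0 in some. Every interval crosses 0, and 29 of the 34 points lie left of it.

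Across the 12 libraries the proteasome genes moved together. Over the 435 pairs among the 30 genes above 0 in all libraries, the correlation of log2 levels had a median of 0.61, and it was above 0 in 387 pairs. Each gene's correlation with the mean of the other 29 had a median of 0.78, while the median over all 7935 genes of the correlation with the mean of the 30 was 0.26. *PSMD2* followed the rest most closely (0.97) and *PSMB5* least (-0.06). These are descriptions over 12 libraries that share depth and composition effects between genes.

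The common level was lowest in a library of each group. In Tough library 6, 0 of the 30 genes were above their own mean of 12 libraries, with a median log2 deviation of -0.47. In Tender library 1, 1 of 30 was above it, with a median of -0.34. All genes above 0 in all libraries had median deviations of -0.21 and -0.13 in the same libraries. The highest were Tender libraries 2, 3 and 5, with median deviations of 0.22, 0.20 and 0.20 and 25, 23 and 28 of the 30 genes above their mean. Over all genes the medians there were 0.01, -0.07 and 0.06.

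Summed by particle, the 11 core genes above 0 in all libraries reached 538 to 794 FPKM in Tough, with a median of 773, and 602 to 953 FPKM in Tender, with a median of 822. The 16 cap genes without the chaperones summed to 612 to 945 FPKM in Tough (median 752) and 650 to 1000.2 FPKM in Tender (median 897). The groups overlapped in both sums, and Tough library 6 was lowest in both. The ratio of the cap sum to the core sum was 1.08 ± 0.11 in Tough and 1.08 ± 0.043 in Tender (SD, n = 6 each). It ran from 0.94 in Tough library 1 to 1.22 in Tough library 3, so the whole spread of the ratio lay within the Tough group.

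The second pattern followed base composition. The first axis of a principal component analysis of the 30 genes held 55.1% of their variance and was the common level. The second held 29.9%, and its loadings had a correlation of 0.84 with the GC content of the exons across the 30 genes. The 7 genes under 44% GC were *PSMD12*, *PSMC6*, *PSMA3*, *PSMD10*, *PSMA1*, *PSMD5* and *PSMD14*. All 7 were above their own mean in Tough libraries 2 and 3 and in Tender libraries 4 and 6, and 0 or 1 of the 7 was above it in Tough libraries 1, 4, 5 and 6 and Tender library 1. The 6 genes over 55% GC were *PSMD3*, *PSMA7*, *PSMD8*, *PSMB3*, *PSMC3* and *PSMC4*. All 6 were above their mean in Tender libraries 2, 3 and 5, and none was in Tough libraries 5 and 6 or in Tender libraries 1 and 4.

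The contrast was widest in Tender library 4, where the median log2 deviation was 0.53 for the 7 genes of low GC and -0.17 for the 6 genes of high GC. In Tough library 3 these medians were 0.46 and 0.01. In Tender library 3 they were -0.08 and 0.40. *PSMD12*, whose stretch is shown above, was at 25.5 FPKM in Tender library 4, the highest of the 12, and at 9.19 FPKM in the lowest Tough library.

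**Figure D4:**
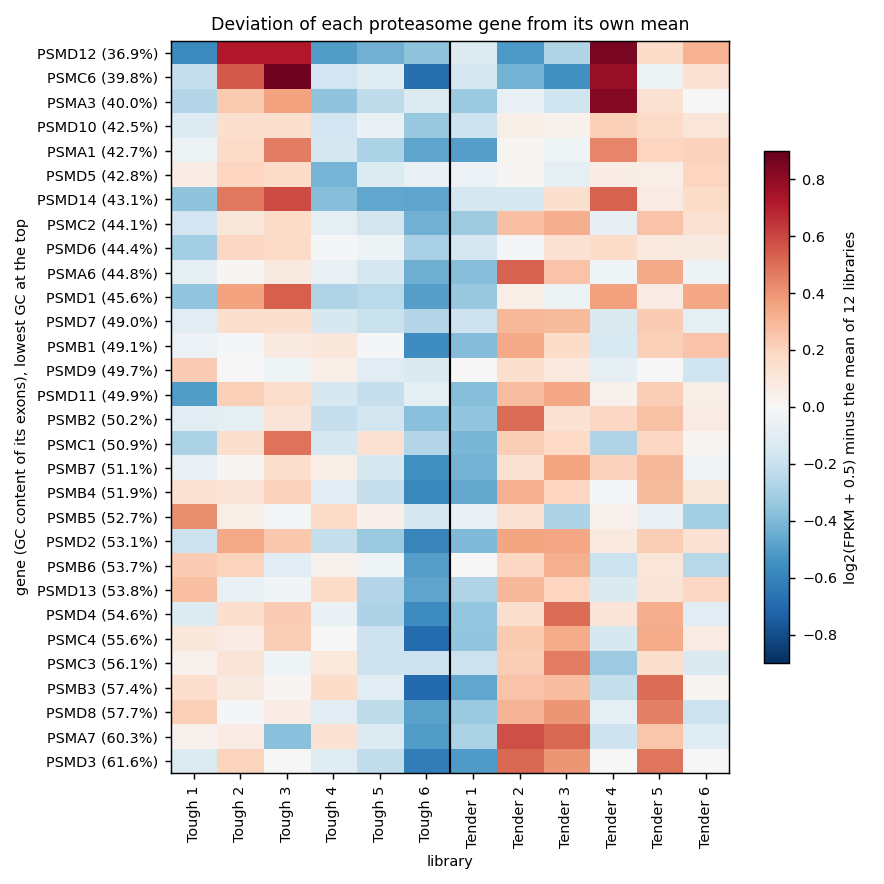
Log2(FPKM + 0.5) of 30 proteasome genes minus each gene's mean of 12 libraries (red above, blue below), with genes ordered by the GC content of their exons and the groups parted by a black line. Tough 6 and Tender 1 are blue nearly throughout, and Tough 2, Tough 3 and Tender 4 turn from red at low GC towards pale or blue at high GC.

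The same trend ran through all genes. A line fitted to log2 deviation against exon GC over the 30 proteasome genes rose by 0.29 per 10 points of GC in Tender library 3 and fell by 0.37 in Tender library 4. Over the 7935 genes above 0 in all libraries, of which the 30 are part, the slopes of these libraries were 0.16 and -0.28. The sign was the same for proteasome genes and for all genes in 12 of 12 libraries. It was above 0 in 3 of 6 Tough and 3 of 6 Tender libraries, so it did not part the groups. In a setting chosen after seeing the data, the line over all genes was removed from every library, with its intercept and so with the library's common level. There 29 of 34 genes had a log2 fold change below 0, beside 50.1% of all genes tested. The median of the 34 was -0.11, and none was at an unadjusted limma p under 0.05. Median-of-ratios scaling, which also removes a common level, gave a median of -0.10. The part of GC content in the fold changes was not tested.

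**Figure D5:**
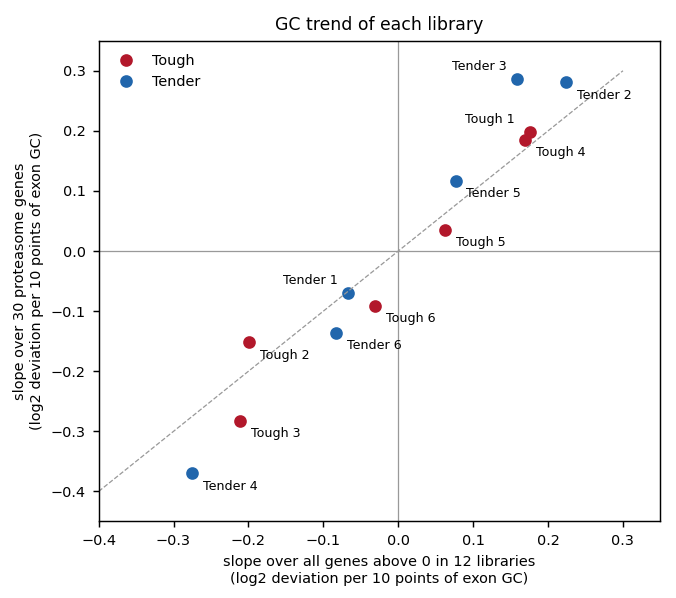
Slope of log2 deviation on exon GC (per 10 percentage points) for each library, over all genes above 0 in all 12 libraries (horizontal) and over the 30 proteasome genes (vertical), with red for Tough, blue for Tender and the dashed line for equal slopes. The 12 points lie in the quadrants of equal sign, with 3 libraries of each group above 0.

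The deposited assemblies also show how completely each gene was rebuilt. Of the 34 genes, 22 had a transcript with exactly an annotated chain of introns in all 12 libraries, and *PSMD11* had one in none. In most genes a library held 1 transcript. Transcripts ran more than 200 bases past an annotated end in at least 1 library for 20 genes, and in no library for 14, among them *PSMB2*, *PSMB4* and *PSMB6*. *PSMA4* and *PSMB5* did so in 8 libraries each (3 Tough and 5 Tender for *PSMA4*, and 5 Tough and 3 Tender for *PSMB5*), and *PSMC2*, *PSMC5* and *PSMD7* in 7 each. Other genes whose exons overlap exons on the opposite strand by over 100 bases are *PSMA3*, *PSMA7*, *PSMC1* and *PSMD6*, and for them too the sources used here do not state strand-specific libraries.

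Around the particle, 39 related genes were tested, and none was at an unadjusted limma p under 0.05, beside 2.47% of all genes tested. By exact permutation 1 of the 39, *UFD1*, was, beside 2.51% of all genes tested. The log2 fold change was below 0 for 28 and above 0 for 11, with a median of -0.10, beside 60.3% below 0 over all genes tested. Among the regulators of proteasome genes, *NFE2L1*, the transcription factor that restores proteasome genes when the particle fails, was at 100.2 FPKM (log2 fold change -0.22, SE 0.22, exact permutation p = 0.429). *MAFK*, a small partner of it, had the smallest limma p of all 39 (log2 fold change -0.69, SE 0.39, exact permutation p = 0.0606). *MAFK* was low, at 1.54 to 4.35 FPKM in Tender. In Tough it was listed at 0 in library 6 and at 1.68 to 2.45 FPKM in the others. All 4 core assembly chaperones tested were below 0 (*PSMG4* was above 0 under median-of-ratios scaling, and *PSMG2* and *PSMG4* under quantile normalization), with the smallest limma p for *PSMG1* (log2 fold change -0.20, SE 0.13, exact permutation p = 0.104). Of the 5 activator and inhibitor genes, 4 were below 0, and *PSME2* of the interferon-induced activator had the smallest limma p (log2 fold change -0.49, SE 0.36, exact permutation p = 0.325). *PSME2* was at 51.4 FPKM in Tender library 2, while the Tender median was 13.1.

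Of the 7 receptors, deubiquitinases and associated proteins, 4 were below 0. *UCHL5*, a deubiquitinase of the cap, had the smallest limma p (log2 fold change 2.07, SE 1.19, exact permutation p = 0.227) and was listed at 0 in 2 libraries. A list of 9 genes joined shuttle factors, which carry ubiquitinated proteins to the particle, with *VCP* and its cofactors *NSFL1C*, *UFD1* and *NPLOC4*. Of these 9, 5 were below 0, with the smallest limma p for *UFD1* (log2 fold change -0.14, SE 0.09, limma p = 0.146, exact permutation p = 0.0152 before adjustment). Of 4 tested genes of ubiquitin and its activating enzyme, 2 were below 0, and *UBB* had the smallest limma p (log2 fold change -0.22, SE 0.20, exact permutation p = 0.258). *SEM1*, the smallest lid subunit, whose symbol the rule does not take in, was listed at 0 in 11 libraries. The entry under this symbol is an unbroken exonic block of 429 bases at chr13:144628949-144629377. Whether other copies of the gene are expressed was not tested, so these zeros do not show that the subunit is absent.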

How the data were processed

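RNA-seq libraries of Longissimus dorsi from 6 Tough and 6 Tender pigs, 1 per animal, were analysed, with groups taken from the sample labels. Trimming by the authors used Trim Galore, mapping to Sscrofa11.1 used TopHat2 2.1.0, and Cufflinks 2.2.1 assembled each library separately. The deposited files give each transcript its FPKM, computed by the authors with Cufflinks, and an isoform score that the authors deposited and that was not used. Transcripts were assigned to the gene of NCBI Release 106 on the same strand that held at least 50% of their exonic bases. For each gene, the products of FPKM and transcript length were added and divided by its exonic length, and 12961 genes had a transcript.

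The test took genes whose mean exceeded 0.5 FPKM and used limma 3.58.1 (R 4.3.3) on log2(FPKM + 0.5) (trend, group alone, two-sided), and fold changes are on that scale, which understates those of low genes. Benjamini-Hochberg adjustment ran over all genes tested. Single genes were also compared by exact permutation over the 924 ways to form groups of 6. The test was tried on simulated data. Genes named in full are the catalytic subunits and, in each role group, those of highest level and of smallest limma p. The members and lists were chosen with earlier results of these data known. Of the related lists, *POMP* and *DDI2* had no entry under these symbols, and of the muscle markers *MB* had none. *ECPAS* was tested under its earlier symbol, *KIAA0368*. Some genes of the related and marker lists are not reported here. The sequencing lane and fattening year of each animal are not stated in the labels or methods, and a seventh Tender animal was not analysed here. Other steps used Python 3.11.15, numpy, pandas, scipy and matplotlib.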

Additional observations from a re-analysis of the deposited data

Results flagged for a closer look

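Each group of 6 libraries was searched for a highest or lowest library whose gap to the next exceeded 0.625 of the range (Dixon's 95% limit), a rule that chance meets in about 1 of 20 groups. It was applied to the 34 proteasome genes, the 3 immunoproteasome genes and the core and cap sums, 78 groups in all, and 9 values met it.

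The widest gaps were the immunoproteasome genes of Tender library 2. *PSMB8* was at 44.5 FPKM there, and the remaining Tender libraries lay between 2.53 and 3.78 FPKM, *PSMB9* at 33.4 against 0.80 to 1.55 FPKM, and *PSMB10* at 34.5 against 4.11 to 5.44 FPKM. *PSMB10* also stood apart in Tough library 1, at 11.6 FPKM against 3.11 to 5.93 FPKM in the other Tough libraries.

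Tough library 6 stood low for a pair of beta genes. *PSMB1* was at 66.6 FPKM there and at 94.9 to 105 FPKM in the other Tough libraries, and *PSMB3* at 40.4 against 61.4 to 73.9 FPKM. *PSMA4* was listed at 0 in the same library, against 26.5 to 37.1 FPKM, but had 13.8 FPKM per exon base. *PSMA2* was listed at 0 in Tough library 2, against 30.8 to 46.9 FPKM, and had 20.1 FPKM per exon base. *PSMA3*, of low GC content, was at 27.4 FPKM in Tender library 4, against 11.9 to 16.7 FPKM in the rest of that group.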

How the results depend on the processing

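The count of genes called was 0 in all 29 alternatives, and the median log2 fold change of the proteasome genes stayed below 0 in the 28 that give one, between -0.24 (without Tender library 1) and -0.07 (quantile normalization). The count of proteasome genes at an unadjusted p of at most 0.05, 0 in the test as reported, was 1 under quantile normalization (*PSMB5*, p = 0.0325), 1 per exon base, 1 with a 90% share, 1 with the highest transcript alone and 1 with a plain sum (all *PSMC5*), and 1 by the exact Wilcoxon test (*PSMA2*, p = 0.0260), which could be run for 31 genes. Leaving out single libraries gave 0 to 3: *PSMA2* without Tough library 2, *PSMA5* without Tough library 3, and *PSMA6*, *PSMB2* and *PSMD3* without Tender library 1. Over all genes the same count, 223, ran from 151 to 635, the latter with array weights. No adjusted p under these alternatives reached the threshold.

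The proteasome genes with a log2 fold change below 0, 29 of 34, numbered 22 with a 90% share, where 7 changed sign (*PSMA2*, *PSMB1*, *PSMB3*, *PSMC3*, *PSMD4*, *PSMD5* and *PSMD14*), 27 under quantile normalization, and 28 to 31 with single libraries left out. Of all genes, 58.5% were below 0 with a 90% share, 49.7% under quantile normalization and 48.9% to 65.7% with single libraries left out. The values that follow cover 17 uncalled genes traced through each alternative, not all that changed sign. Under quantile normalization *PSMB6* was at 0.044 and *PSMC3* at 0.050. With a 90% share *PSMB10* was at 1.70, *PSMC3* at 1.14 and *PSMD5* at 0.13. With the highest transcript alone *PSMC3* was at 0.0014 and *PSMD10* at 0.032, and with a plain sum *PSMC3* was at 0.0014. With single libraries left out the ranges were -0.11 to 0.037 for *PSMB6* (above 0 without Tough library 6 or Tender library 3), -0.13 to 0.029 for *PSMC3* (Tender library 3), -0.11 to 0.014 for *PSMD5* (Tough library 4), and, above 0 without Tender library 2, -0.78 to 0.062 for *PSMB8*, -0.85 to 0.090 for *PSMB9* and -0.56 to 0.13 for *PSMB10*. The causes were not tested.

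With the animal number as a replicate block, 0 genes were called, 0 proteasome genes had an unadjusted p of at most 0.05 and the median log2 fold change was -0.15. Same-numbered animals had correlations of their deviations of -0.45 to -0.07, so the numbers do not pair the animals. The restriction to genes above 0 in all 12 libraries and the GC adjustment were chosen after seeing the data. The former gave 26 of 30 genes below 0, beside 61.2% of the 7935 genes tested there.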

Other observations

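The 5 genes with a log2 fold change above 0 were *PSMB5*, *PSMA4*, *PSMC1*, *PSMC6* and *PSMD9*, of which *PSMA4* was above 0 with 3 libraries listed at 0. They come from the core, the ATPase ring and the chaperones, and none was at an unadjusted limma p under 0.05. *PSMD9* had the lowest coefficient of variation of the 30 genes above 0 in all libraries, at 9.19%, and *PSMD12* the highest, at 40.6%. The exons of these 30 genes had a median GC content of 50.1%, against 51.6% over the 7935 genes above 0 in all libraries.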
